A study of Homo sapiens with 12 samples.

Results

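The response of 2 human lung squamous cell carcinoma (LUSC) lines to maspin was compared gene by gene. For each gene the effect of maspin was taken as the log2 fold change of maspin cells over ctrl cells within a line, and the difference as the effect in RERF-LC-AI minus the effect in LK-2. All 12 libraries of the series entered the comparison, 3 per group. The groups are named LC-AI-ctrl and LC-AI-maspin for RERF-LC-AI, and LK2-ctrl and LK2-maspin for LK-2. The maspin groups carry a lentiviral vector for maspin with the green fluorescent protein ZsGreen, and the ctrl groups carry the ZsGreen vector alone. The cells of a group are stably transduced and blasticidin-resistant, and were used as pooled clones. LK-2 cells were kept in RPMI1640 and RERF-LC-AI cells in Eagle's minimum essential medium. No source used here says whether replicate libraries were separate cultures. The p-values therefore measure only the spread between these samples, which may be technical. Of 38434 named genes in the deposited tables, 28123 passed a filter on low counts and were tested.

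Maspin is the product of SERPINB5, a clade B serpin that does not inhibit proteases and that many epithelial tumours lose. It is found in the nucleus, where it can bind histone deacetylase HDAC1, and in the cytoplasm, where it has been tied to integrins and focal adhesions. The study set these lines side by side to ask whether its role depends on where in the cell it lies. The RNA counts do not measure that place. A difference between effects, unlike a list of changed genes in each line, tests directly whether a gene answered unequally.

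Total counts over named genes ran from 39802246 to 54941357 over the LK-2 libraries and from 50143577 to 65454432 over those of RERF-LC-AI. The tables of the lines were made separately, and the line, its table and its medium cannot be told apart. Replicates of LK-2 spread more, with a biological coefficient of variation of 11.7% against 6.43%. The markers of a squamous carcinoma were sparse in RERF-LC-AI and uneven in LK-2. SOX2 and TP63, transcription factors of that lineage, had means of 500 and 1.18 CPM (counts scaled to a library of 1e6, TMM-normalized) in LK2-ctrl but 0.39 and 0.64 CPM in LC-AI-ctrl, and KRT5, a basal keratin, had 0.726 and 0.0426 CPM. Of 9 squamous markers 6 reached 1 CPM in LK-2, and 3 did so in RERF-LC-AI. Mesenchymal markers went both ways. VIM, an intermediate filament of mesenchymal cells, was at 0.59 CPM in LK2-ctrl and 1790 CPM in LC-AI-ctrl. The cadherin CDH2 was at 342 CPM in LK2-ctrl and 0.363 CPM in LC-AI-ctrl. Of 9 mesenchymal markers 6 reached 1 CPM in LK-2, and 5 did so in RERF-LC-AI. Epithelial markers went both ways too. EPCAM and CDH1 had means of 535 and 115 CPM in LK2-ctrl but 5.41 and 2.96 CPM in LC-AI-ctrl. KRT19 was also lower in LC-AI-ctrl, whereas KRT7, KRT8 and KRT18 were higher there. Of 5 leukocyte and 4 endothelial markers none was called by edgeR, and their summed levels stayed between 2.71 and 6.69 CPM in all libraries.

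The lines did not receive the same amount of maspin RNA. SERPINB5 (Entrez ID 5268, GRCh38 chromosome 18, 63476958 to 63505085) stood at 1.9, 1.89 and 1.7 CPM in LK2-ctrl and at 47.1, 47.4 and 44.8 CPM in LK2-maspin. It stood at 0.291, 0.154 and 0.216 CPM in LC-AI-ctrl and at 551, 516 and 470 CPM in LC-AI-maspin. In both lines every maspin library lay above every ctrl library. Relative to its own ctrl, RERF-LC-AI gained more, by 6.52 on the log2 scale (SE 0.19, adjusted p = 4.71e-16, edgeR). Part of that value comes from the lower ctrl level in RERF-LC-AI, with 14, 8 and 10 reads in its ctrl libraries. The maspin libraries themselves stood at 470 to 551 CPM in RERF-LC-AI and at 44.8 to 47.4 CPM in LK-2. Every difference below therefore sets a line with much maspin RNA against one with less, and the line and the level of maspin cannot be told apart.

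Most differences that passed the test were lower effects in RERF-LC-AI. With edgeR's quasi-likelihood test and a Benjamini–Hochberg adjusted p under 0.05, 538 genes were called, 1.91% of those tested. The effect in RERF-LC-AI was higher for 126 of them (0.448%) and lower for 412 (1.46%). Over all genes tested the median difference was 0.0213, and 53.1% of the genes lay above 0, against 23.4% of the called genes. The split between directions moved with the scaling. It was 71 higher and 475 lower with RLE factors, 212 and 406 with upper-quartile factors and 240 and 436 with library size only. An unadjusted p under 0.05 was reached by 3510 genes, 1602 higher and 1908 lower. The median size of the called differences was 0.6 on the log2 scale, and 114 exceeded 2-fold, 26 higher and 88 lower.

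Single libraries carried part of these calls. Leaving out one library at a time gave from 293 to 806 calls. The count fell by more than 1.5 times without LK2-ctrl replicate 2 (357 calls), LK2-maspin replicate 2 (324), LC-AI-ctrl replicate 3 (321) or LC-AI-maspin replicate 3 (293). In all 12 of these fits 230 genes were called (0.818%), 30 higher and 200 lower. Genes at a higher level were called more often, from 0.0774% of the genes under 1 CPM to 4.95% of those over 64 CPM. Called were 2.91% of the protein-coding genes and 0.275% of the long non-coding RNA genes.

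Within the lines, the same 12-library fit called 1183 genes for the effect in RERF-LC-AI (4.21%) and 249 for the effect in LK-2 (0.885%). That fit took 1 spread per gene over both lines (9.57% in common), although replicates of LK-2 spread more. It may therefore call effects in LK-2 too readily and effects in RERF-LC-AI too rarely, which also touches the sorting below. Of the 538 genes that differed, 371 were called in RERF-LC-AI alone, where 92 rose and 279 fell. A further 90 were called in LK-2 alone, where 69 rose and 21 fell. In neither line alone were 51 called, and 26 were called in both. Among those 26, 22 moved in opposite directions, and 4 moved the same way by unequal amounts. These last were SERPINB5, CLVS2, ATP8B1 and MYH14, of which ATP8B1 and MYH14 were named after their values were seen. Selecting genes by their difference favours opposite signs, so this split says little about shared responses. Without that selection, 22 of the genes called in both lines had opposite signs and 18 had the same sign. Across 15908 genes at 1 CPM or more in both lines, without SERPINB5, the correlation of the effects was 0.00221. This is a description across genes, which are not independent replicates. Over these genes the SD of the effects was 0.221 in RERF-LC-AI and 0.175 in LK-2. The median SEs were 0.0932 and 0.0945. Noise of that size draws a correlation towards 0, so the value does not show that the responses were unrelated.

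**Figure D1:**
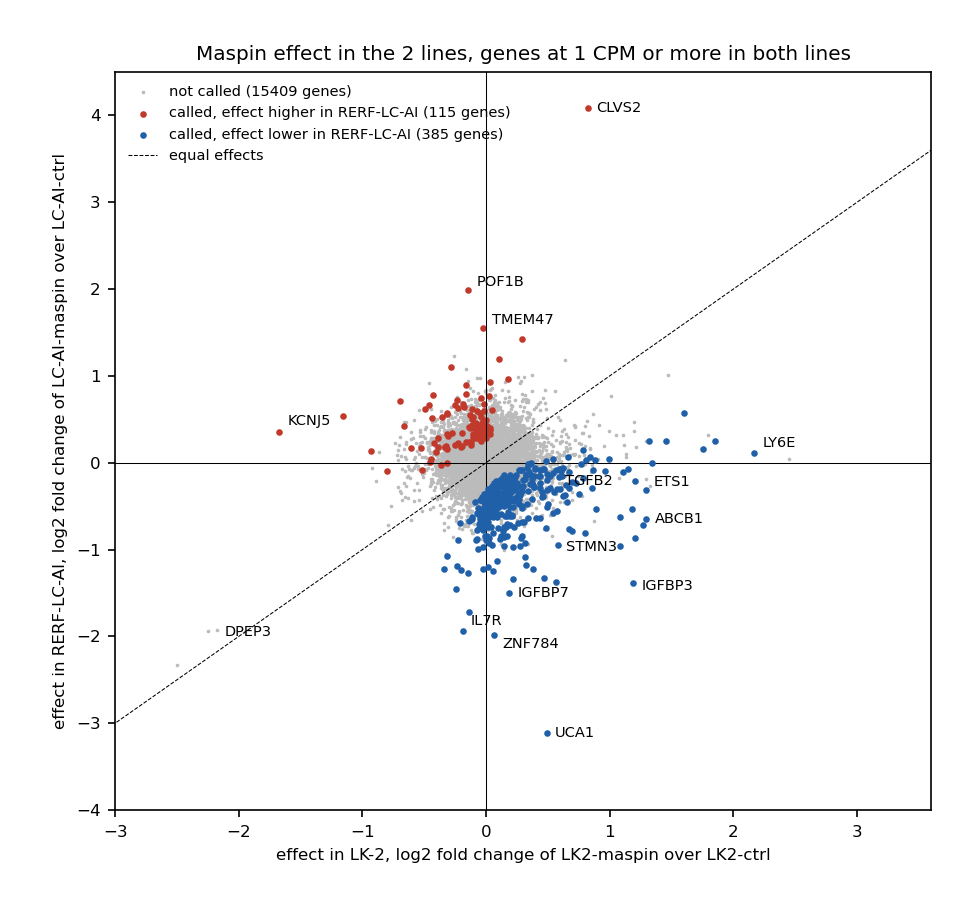
Effect of maspin in LK-2 (x axis) against RERF-LC-AI (y axis), both as log2 fold change, 1 point per gene at 1 CPM or more in both lines, without SERPINB5. Red points were called with a higher and blue points with a lower effect in RERF-LC-AI, grey points were not called, and the dashed line marks equal effects. Blue points lie mostly to the lower right, with IGFBP3 and ABCB1 far out, whereas DPEP3 lies close to the line of equal effects.

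In both lines, and with opposite signs, 22 genes were called (0.0782% of the genes tested), and all of them rose in LK2-maspin and fell in LC-AI-maspin. All 22 were also called without each library in turn. With limma voom, IGFN1 (adjusted p = 0.0563) and KRT80 (adjusted p = 0.0692) lost their calls. MYBL1 (Entrez ID 4603, chromosome 8, 66562175 to 66613218), a MYB family transcription factor, had the smallest adjusted p among them. Its levels were 5.59, 4.93 and 5.34 CPM in LK2-ctrl, 8.14, 7.66 and 7.15 CPM in LK2-maspin, 119, 137 and 123 CPM in LC-AI-ctrl and 78.5, 91.8 and 84.6 CPM in LC-AI-maspin. The groups of each line did not overlap, and the difference was -1.11 (SE 0.12, adjusted p = 9.28e-06, edgeR). It lies in a stretch of chromosome 8 whose genes fell together in RERF-LC-AI, described further on.

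KRT8 and KRT18 form the keratin pair of simple epithelia. KRT8 (Entrez ID 3856, chromosome 12, 52897191 to 52949860) stood at 574, 617 and 628 CPM in LK2-ctrl and at 713, 752 and 724 CPM in LK2-maspin. In RERF-LC-AI it stood at 1450, 1500 and 1400 CPM in ctrl and at 1020, 1090 and 1010 CPM in maspin libraries. Its groups were apart in both lines, with a difference of -0.74 (SE 0.08, adjusted p = 1.18e-05, edgeR). KRT18 differed by -0.64 (SE 0.08, adjusted p = 3.76e-05, edgeR), with a fall of 0.42 in RERF-LC-AI and an effect of 0.22 in LK-2 that missed the threshold (adjusted p = 0.0577, edgeR). The RefSeq intervals of the 2 genes overlap, so reads there may be shared between them. KRT80, a keratin of stratified epithelia, rose by 0.55 in LK-2 and fell by 0.34 in RERF-LC-AI.

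TGFB2 (Entrez ID 7042, chromosome 1, 218345336 to 218444619), a ligand of the TGF-beta receptors, stood at 60.8, 65.6 and 62.6 CPM in LK2-ctrl and at 88.7, 100 and 92.3 CPM in LK2-maspin. Its levels were 104, 97.7 and 110 CPM in LC-AI-ctrl and 79, 82.7 and 91.4 CPM in LC-AI-maspin. All maspin libraries were above the ctrl libraries in LK-2 and below them in RERF-LC-AI. The difference was -0.87 (SE 0.10, adjusted p = 2.25e-05, edgeR). SFN (Entrez ID 2810, chromosome 1, 26863149 to 26864456), the 14-3-3 sigma protein of epithelial cells, stood at 36.3, 38.1 and 34.3 CPM in LK2-ctrl and at 45.9, 53.5 and 49.8 CPM in LK2-maspin. It was at 89.1, 86.6 and 81.8 CPM in LC-AI-ctrl and at 66.2, 69.2 and 67.6 CPM in LC-AI-maspin, again with no overlap. Its difference was -0.80 (SE 0.09, adjusted p = 3.76e-05, edgeR).

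The others of the 8 with the smallest adjusted p were MPP1, a membrane-associated scaffold (-1.70), the collagen COL26A1 (-1.71), the stathmin STMN3, which binds tubulin (-1.53), and GLCE, the epimerase of heparan sulfate (-0.80). MPP1 was at 0.573, 0.902 and 0.647 CPM in LK2-ctrl and at 1.54, 1.61 and 1.71 CPM in LK2-maspin. In RERF-LC-AI it fell from 28, 31.2 and 33.2 CPM to 21, 21.8 and 21.2 CPM. The remaining 14 ran from -0.62 for OXR1 to -2.58 for IGFBP3.

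Promoters of genes that rose in LK-2 and fell in RERF-LC-AI are printed as RefSeq gives them (GRCh38.p14), 250 bases before to 50 after a transcript start. One window per gene was used, the first that the table lists. Capitals mark matches to TGANTCA, the AP-1 motif, or to GGAATG, the TEAD motif, on either strand. SFN holds the AP-1 letters and TGFB2 the TEAD letters. KRT8 holds the TEAD letters too, but its window starts at an inner transcript and not at the end of the gene interval given above, so it is not printed.
SFN, chr1:26862899-26863198, plus strand: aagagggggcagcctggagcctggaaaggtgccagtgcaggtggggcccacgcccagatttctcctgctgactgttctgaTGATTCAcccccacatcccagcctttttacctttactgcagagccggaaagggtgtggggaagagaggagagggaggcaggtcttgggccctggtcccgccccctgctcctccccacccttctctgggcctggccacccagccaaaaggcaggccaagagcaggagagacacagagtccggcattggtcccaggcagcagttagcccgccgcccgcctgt
TGFB2, chr1:218345086-218345385, plus strand: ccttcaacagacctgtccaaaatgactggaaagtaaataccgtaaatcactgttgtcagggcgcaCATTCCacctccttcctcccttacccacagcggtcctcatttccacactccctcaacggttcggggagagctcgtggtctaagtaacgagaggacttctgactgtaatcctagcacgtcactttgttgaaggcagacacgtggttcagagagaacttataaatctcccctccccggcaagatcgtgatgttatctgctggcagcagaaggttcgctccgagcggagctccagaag
Of the 22 genes, 17 had a promoter in the table, and 1 of these held the AP-1 letters (5.88%) and 2 the TEAD letters (11.8%). Among the promoters of all 19336 tested genes in the table the shares were 6.58% and 12.7%. The E-box CACCTG was in 6 of the 17 (35.3%) and in 19.9% of all. The ETS motif CCGGAAGT was in 1 of the 17 and in 5.71% of all. A match is a run of letters and shows no binding.

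Some of the largest negative differences among genes expressed in both lines were falls in RERF-LC-AI alone. UCA1 (Entrez ID 652995, chromosome 19, 15828947 to 15836321), a long non-coding RNA known from bladder cancer, led with -3.60 (SE 0.47, adjusted p = 3.46e-04, edgeR). It was at 4.7, 5.86 and 5.86 CPM in LC-AI-ctrl and at 0.641, 0.488 and 0.759 CPM in LC-AI-maspin. In LK-2 it ran from 0.316 to 1.13 CPM in ctrl and from 0.778 to 1.55 CPM in maspin libraries, and these overlapped. ZNF784, a zinc finger protein, fell from 28.1, 31.8 and 33.2 CPM to 7.96, 7.51 and 8.01 CPM in RERF-LC-AI. Its LK-2 libraries all lay between 3.1 and 3.9 CPM, and its difference was -2.05 (SE 0.16, adjusted p = 8.65e-08, edgeR). IL7R, the receptor chain for interleukin 7 (-1.75), and MGC32805, a non-coding RNA (-1.80), also fell in RERF-LC-AI alone.

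Other large negative differences joined a fall in RERF-LC-AI to a rise in LK-2, or were a rise in LK-2 alone. LY6E (Entrez ID 4061, chromosome 8, 143018529 to 143022409), a GPI-anchored surface protein, stood at 1.19, 1.23 and 0.971 CPM in LK2-ctrl and at 5.46, 4.81 and 4.96 CPM in LK2-maspin. In RERF-LC-AI it was at 112, 102 and 107 CPM in ctrl and at 113, 121 and 111 CPM in maspin libraries, so that its groups overlapped there. The difference was -2.06 (SE 0.13, adjusted p = 2.38e-09, edgeR). ABCB1, the multidrug efflux pump P-glycoprotein, was at 2.73, 3.66 and 1.96 CPM in LK2-ctrl and at 6.4, 7.66 and 6.55 CPM in LK2-maspin. It fell from 4.05, 5.07 and 4.4 CPM to 2.69, 3.05 and 2.92 CPM in RERF-LC-AI, a difference of -1.94 (SE 0.25, adjusted p = 1.16e-04, edgeR). PRSS23, a secreted serine protease (-2.04), and IGFN1, a muscle protein with immunoglobulin folds (-2.07), showed the same opposite signs.

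Positive differences were fewer and, maspin apart, mostly rises in RERF-LC-AI alone (92 of 126). CLVS2 (Entrez ID 134829, chromosome 6, 122996235 to 123072925), a lipid-binding clavesin, was at 0.832, 1.08 and 1.03 CPM in LC-AI-ctrl and at 18.3, 16.8 and 14.9 CPM in LC-AI-maspin. It also rose in LK-2, from 1.22, 0.989 and 0.95 CPM to 2.42, 1.49 and 1.63 CPM. The difference of these rises was 3.26 (SE 0.27, adjusted p = 1.91e-07, edgeR). POF1B, an actin-binding protein of junctions, rose from 0.624, 0.615 and 0.582 CPM to 2.13, 2.46 and 2.63 CPM in RERF-LC-AI. Its LK-2 levels were 30.7, 29.3 and 31.1 CPM in ctrl and 28.9, 27.1 and 26.1 CPM in maspin libraries, and its difference was 2.14 (SE 0.17, adjusted p = 8.65e-08, edgeR). TMEM47, a claudin-like junction protein, differed by 1.58 and the hyaluronan synthase HAS2 by 1.08, both with a rise in RERF-LC-AI alone.

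KCNJ5 (Entrez ID 3762, chromosome 11, 128891356 to 128921163), a subunit of G protein-gated potassium channels, differed through LK-2. It fell there from 57.4, 69 and 64.8 CPM to 22, 17.7 and 20.1 CPM. In RERF-LC-AI it was at 2.06, 2.75 and 1.85 CPM in ctrl and at 2.94, 2.22 and 3.42 CPM in maspin libraries, which overlapped. Its difference was 2.03 (SE 0.21, adjusted p = 2.90e-05, edgeR). FAM171B (0.78) and LOC105378174 (1.70) also fell in LK-2 alone. LPL, lipoprotein lipase, rose in RERF-LC-AI (effect 0.57) and had an effect of -0.31 in LK-2 that missed the threshold (adjusted p = 0.0534, edgeR). KCTD15 (0.89), the phosphatase-like PALD1 (0.82) and the transcription factor SOX4 (0.79) rose in RERF-LC-AI alone.

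**Figure D2:**
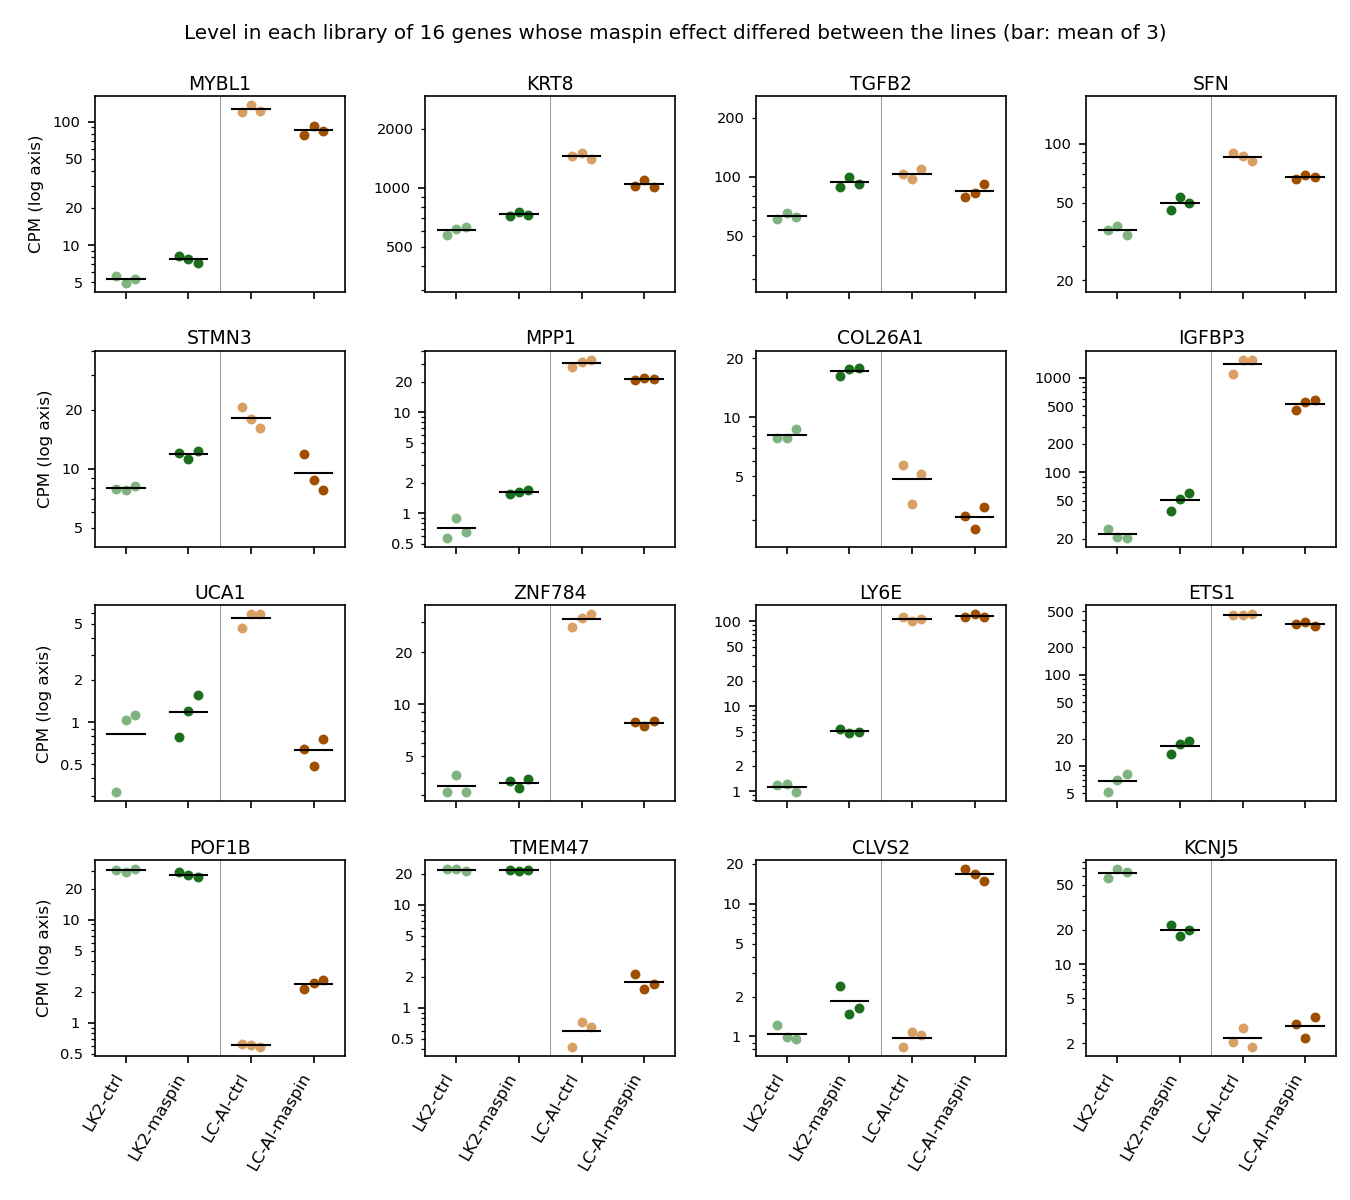
Level of 16 genes in CPM on log axes, 1 point per library and a bar at the mean of the 3 libraries of a group, LK-2 groups left and RERF-LC-AI groups right of the line. MYBL1 to IGFBP3 rise in LK2-maspin and fall in LC-AI-maspin, UCA1 and ZNF784 drop in LC-AI-maspin, LY6E and ETS1 rise in LK2-maspin, and POF1B, TMEM47 and CLVS2 rise in LC-AI-maspin, while KCNJ5 drops in LK2-maspin.

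Gene families and pathways were described with 39 lists, of which 1197 distinct genes were tested. Of these 83 were called (6.93%), 19 with a higher and 64 with a lower effect in RERF-LC-AI. These shares are above the 1.91% of all genes, but list members are mostly protein-coding genes, of which 2.91% were called. By edgeR no member was called in 5 lists. These were the 12 FAK and SRC family kinases, 19 connexins and pannexins, 11 classical histone deacetylases, 55 cell cycle and DNA replication genes and 35 cholesterol and fatty acid synthesis genes, with median differences between -0.18 and -0.036. In that order 4, 4, 2, 7 and 4 members had an unadjusted p under 0.05. DESeq2 called 1 member in each of the first 3 lists and none in the others, and limma voom called none.

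Genes of cell adhesion and matrix with a difference lay mostly below 0, as did 412 of the 538 called genes in all. The counts in this and the next paragraphs stand against 1.91% called of all genes and 2.91% of the protein-coding genes. Among 27 focal adhesion adaptors, 4 were lower and 1 was higher, with a median of -0.068. ACTN4, an actin crosslinker, had a difference of -0.41 (SE 0.07, adjusted p = 2.64e-03, edgeR) and fell in RERF-LC-AI alone. TNS3, a tensin, differed by -0.49, but lost its call without LC-AI-ctrl replicate 3 or LC-AI-maspin replicate 3 (adjusted p up to 0.0779, edgeR). NEDD9, a docking protein of FAK and SRC, was higher by 0.65, and lost its call without any one of 6 libraries (adjusted p up to 0.0928, edgeR). Of 26 integrins 2 were lower, with a median of 0.015. ITGA1, a collagen receptor chain, rose in LK-2 from 6.14, 6.78 and 6.35 CPM to 10.2, 12.7 and 12.8 CPM, with an effect of 0.03 in RERF-LC-AI. ITGB4, the hemidesmosome integrin, fell in RERF-LC-AI from 147, 93.4 and 115 CPM to 49.7, 39.5 and 40.3 CPM, a difference of -1.21 (SE 0.20, adjusted p = 0.01, edgeR) whose call was lost with limma voom (adjusted p = 0.0619).

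Of 12 laminin chains LAMB1 alone was called, at -0.58, with a median of -0.167. Called of 44 collagen chains were COL26A1 and COL5A1, a chain of fibrillar collagen (-1.24), and the median of that list was 0.144. Of 35 matrix glycoproteins 3 were lower, with a median of -0.098. MATN2, a matrilin, fell in RERF-LC-AI from 84.4, 97.3 and 102 CPM to 41.6, 42 and 39.3 CPM and stayed between 23.5 and 25.5 CPM in all LK-2 libraries. Its difference was -1.22 (SE 0.10, adjusted p = 1.91e-07, edgeR). THBS2, a thrombospondin, fell in RERF-LC-AI from 276, 315 and 362 CPM to 43.5, 44.1 and 46.2 CPM, and ran from 0.159 to 0.748 CPM in LK-2. Its difference of -2.85 (adjusted p = 0.0353, edgeR) lost its call without any one of 8 libraries (adjusted p up to 0.126) and with the replicate number as a block (adjusted p = 0.128). THBS1 had a difference of -1.98 (adjusted p = 0.0397, edgeR) and lost its call without any one of 9 libraries (adjusted p up to 0.103).

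The junction and keratin genes that were called were all lower, which was the general direction of the calls. Of 35 tight junction proteins 3 were lower, among them CLDN7, a claudin (-1.19), and CGN, cingulin (-0.64), with a list median of 0.001. CLDN7 lost its call without LC-AI-maspin replicate 3 (adjusted p = 0.0523, edgeR). Of 32 cadherins, catenins and desmosome proteins, the desmosome genes DSP (-0.44) and PKP2 (-0.54) were lower, and the median was -0.015. DSP lost its call without LK2-ctrl replicate 2, LC-AI-ctrl replicate 2 or LC-AI-maspin replicate 3 (adjusted p up to 0.0985, edgeR). Of 21 type I keratins KRT18 and KRT31 were lower, and of 17 type II keratins KRT8 and KRT80. KRT31, a hair keratin, rose in LK-2 from 2.31, 2.79 and 3.2 CPM to 13.4, 16.3 and 18.6 CPM and ran from 0.0577 to 0.27 CPM in RERF-LC-AI. Its call at -2.65 was lost without LC-AI-ctrl replicate 1 (adjusted p = 0.0611, edgeR). Most keratins were below 1 CPM in at least one line (18 and 14), so the list medians of -0.413 and -0.681 rest on few reads. Without 1 type II keratin at 0 in a whole group the second was -0.708, and without 2 type I keratins at 0 the first was again -0.413. Of 15 squamous differentiation genes SFN alone was called, with a median of -0.284 with or without 2 genes at 0 in a group. Of 11 clade B serpins only SERPINB5 was called, and the median was -0.047. Of 25 Rap1 GTPases and regulators, SIPA1, a Rap1 inactivator, was called at -0.77, a call lost without any one of 7 libraries (adjusted p up to 0.0802, edgeR). The median of that list was -0.104.

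Receptors and ligands of growth factors that differed had lower effects in RERF-LC-AI, again the general direction of the calls. Of 17 genes of the EGFR family and its ligands, 2 were called and the median was 0.083. NRG1, a ligand of ERBB receptors, fell in RERF-LC-AI from 20.5, 22.9 and 24.2 CPM to 12.8, 11.5 and 11.4 CPM and ran from 17 to 20 CPM in LK-2. Its difference was -0.95 (SE 0.13, adjusted p = 1.44e-04, edgeR). EGFR itself fell from 363, 373 and 371 CPM to 283, 279 and 243 CPM in RERF-LC-AI. In LK-2 it was at 4.9, 4.25 and 3.86 CPM in ctrl and at 4.11, 5.85 and 4.29 CPM in maspin libraries, which overlapped. The difference of -0.58 (SE 0.15, adjusted p = 0.0485, edgeR) was close to the threshold, and its call was lost without any one of 6 libraries (adjusted p up to 0.131). Of 45 other receptor tyrosine kinases 4 were lower, with a median of -0.133. KIT, the stem cell factor receptor (-1.59), PDGFRB, a platelet-derived growth factor receptor (-2.04), and FGFR3, a fibroblast growth factor receptor (-0.99), fell in RERF-LC-AI alone. IGF1R differed by -0.56 (adjusted p = 6.65e-03, edgeR).

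The IGF axis had the highest share of calls among the lists, 7 of 20 members (35%), with 5 lower and 2 higher and a median of 0.022. IGFBP3 (Entrez ID 3486, chromosome 7, 45912245 to 45921272), the main IGF carrier of serum, was at 25.1, 21.1 and 20.5 CPM in LK2-ctrl and at 39.1, 52.3 and 60.9 CPM in LK2-maspin. It fell from 1080, 1550 and 1550 CPM to 460, 548 and 587 CPM in RERF-LC-AI, a difference of -2.58 (SE 0.28, adjusted p = 2.12e-03, edgeR). IGFBP7 fell from 15.9, 15.3 and 13.5 CPM to 6.14, 5.33 and 4.36 CPM in RERF-LC-AI, and stayed between 1.63 and 2.44 CPM in LK-2. Its difference was -1.69. IRS1, the adaptor below the IGF and insulin receptors, differed by -1.03 (SE 0.16, adjusted p = 8.33e-04, edgeR) with a fall in RERF-LC-AI. STC2, a stanniocalcin, was higher by 0.49, a call lost without LC-AI-maspin replicate 2 (adjusted p = 0.0547, edgeR).

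Of 36 genes of the Hippo pathway and targets of YAP and TEAD, 7 were lower and 1 was higher (22.2%), and the median was -0.108. AMOTL1, an angiomotin, rose by 0.45 in LK-2 and fell by 0.39 in RERF-LC-AI. CRIM1 differed by -0.57 (SE 0.08, adjusted p = 4.2e-04, edgeR), falling in RERF-LC-AI from 346, 352 and 365 CPM to 255, 279 and 251 CPM. TGFB2 and IGFBP3 stand in this list as well. The cofactor YAP1 differed by -0.33, the kinase LATS2 by -0.51 and F3, tissue factor, by -0.95, and GADD45A by 0.62.

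Of 26 TGF-beta ligands, receptors and latency proteins 4 were lower, with a median of -0.196. Beside TGFB2 these were ENG, the coreceptor endoglin (-1.0), the inhibitory SMAD6 (-0.74) and the latency protein LTBP4 (-0.63). ENG fell from 180, 185 and 178 CPM to 125, 132 and 124 CPM in RERF-LC-AI, while its LK-2 groups overlapped, and its call was lost with limma voom (adjusted p = 0.05). Of 32 BMP genes, BMP4 rose in LK-2 from 44.6, 48 and 48.2 CPM to 63, 72.8 and 65.7 CPM and differed by -0.80 (SE 0.11, adjusted p = 2.20e-04, edgeR). BAMBI, a decoy receptor, differed by -0.71, a call lost without any one of 8 libraries (adjusted p up to 0.247, edgeR). The BMP median was -0.091. NOTUM, which inactivates WNT proteins, was the call among 46 WNT genes (-1.31, list median -0.015), MAML2, a Notch coactivator, among 28 Notch genes (-0.90, median -0.139), and the receptor PTCH1 among 17 Hedgehog genes (-0.98, median -0.103). NOTUM lost its call with limma voom (adjusted p = 0.249). PTCH1 lost its call without any one of 8 libraries (adjusted p up to 0.117, edgeR).

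ETV4 and ETV5, ETS factors of the FGF and MAPK response, were higher in RERF-LC-AI. ETV4 rose there from 26.8, 26.3 and 24.6 CPM to 37.4, 38.2 and 36.7 CPM and was at 142, 144 and 145 CPM in LK2-ctrl and 130, 137 and 134 CPM in LK2-maspin. Its difference was 0.64 (SE 0.08, adjusted p = 1.03e-04, edgeR). ETV5 differed by 0.49 (SE 0.08, adjusted p = 2.17e-03, edgeR), with a rise in RERF-LC-AI alone. ETS1 had the opposite sign, with a rise in LK-2 from 5.12, 6.92 and 8.21 CPM to 13.5, 17.5 and 18.6 CPM and a difference of -1.61 (SE 0.19, adjusted p = 5.97e-04, edgeR). These made 3 of 27 ETS factors, with a median of -0.049. Among 42 immediate early and feedback genes of MAPK signalling, ETV4, ETV5 and SPRED1, an inhibitor of RAS signalling, were higher, with a median of 0.108. SPRED1, at 0.32, lost its call without any one of 10 libraries (adjusted p up to 0.248, edgeR).

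Transcription factors of the mesenchymal transition went both ways. Of 18, TWIST1 rose in LK-2 from 47.2, 48.5 and 39.8 CPM to 67.1, 75.2 and 70.1 CPM and differed by -0.90 (SE 0.13, adjusted p = 3.46e-04, edgeR). TCF4 differed by 0.62 with a rise in RERF-LC-AI, and the list median was 0.022. Of 19 lineage factors SOX9 was lower (-1.42, SE 0.22, adjusted p = 1.03e-03, edgeR) after a rise in LK-2, and GATA6 was higher (1.12). GATA6 lost its call without any one of 8 libraries (adjusted p up to 0.0923, edgeR), and the list median was 0.184. Of 41 matrix proteases and inhibitors, ADAM19 (-0.96), MMP16 (-0.69) and MMP14 (-0.49), all membrane-bound metalloproteinases, were lower, with a median of -0.194. MMP14 lost its call without any one of 5 libraries (adjusted p up to 0.101, edgeR).

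Calls among stress, metabolic and immune genes went both ways. In the list of ATF4 targets and amino acid genes (39 tested) 2 were higher and 3 lower, with a median of 0.066. SLC1A5, a glutamine transporter, rose in LK-2 from 410, 427 and 407 CPM to 566, 628 and 612 CPM, a difference of -0.50 (SE 0.08, adjusted p = 1.03e-03, edgeR). PSAT1, of serine synthesis, differed by -0.46 and lost its call without LC-AI-ctrl replicate 3 (adjusted p = 0.0516, edgeR). Of 53 interferon-stimulated and antigen presentation genes 3 were lower, with a median of -0.078. TAP1, of the peptide transporter, rose in LK-2 from 0.77, 0.798 and 0.627 CPM to 1.73, 1.11 and 1.39 CPM (difference -1.06, SE 0.19, adjusted p = 2.84e-03, edgeR), and lost its call with limma voom (adjusted p = 0.0728). Its neighbour PSMB8, an immunoproteasome subunit, differed by -1.55 and lost its call without LK2-maspin replicate 1 (adjusted p = 0.0819). NLRC5, the activator of MHC class I genes, differed by -0.67 and lost its call without any one of 11 libraries (adjusted p up to 0.155).

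Of 44 NF-kB factors, cytokines and chemokines, NFKB2 was higher (0.49) and IL7R and the receptor IL6R (-0.54) were lower, with a median of 0.015. IL6R lost its call without any one of 8 libraries (adjusted p up to 0.134, edgeR). Of 34 oxidative stress genes, the peroxidase GPX3 was lower (-0.66) and AKR1C3, an aldo-keto reductase with close paralogs, higher (1.17), with a median of -0.042. AKR1C3 lost its call without any one of 6 libraries (adjusted p up to 0.178, edgeR). EPAS1, a hypoxia-inducible factor, was the call among 41 glycolysis and hypoxia genes (-0.52, median 0.012). EDEM1, of ER-associated degradation, was the call among 32 genes of the unfolded protein response (0.38, median -0.035) and lost it without any one of 9 libraries (adjusted p up to 0.103, edgeR).

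**Figure D3:**
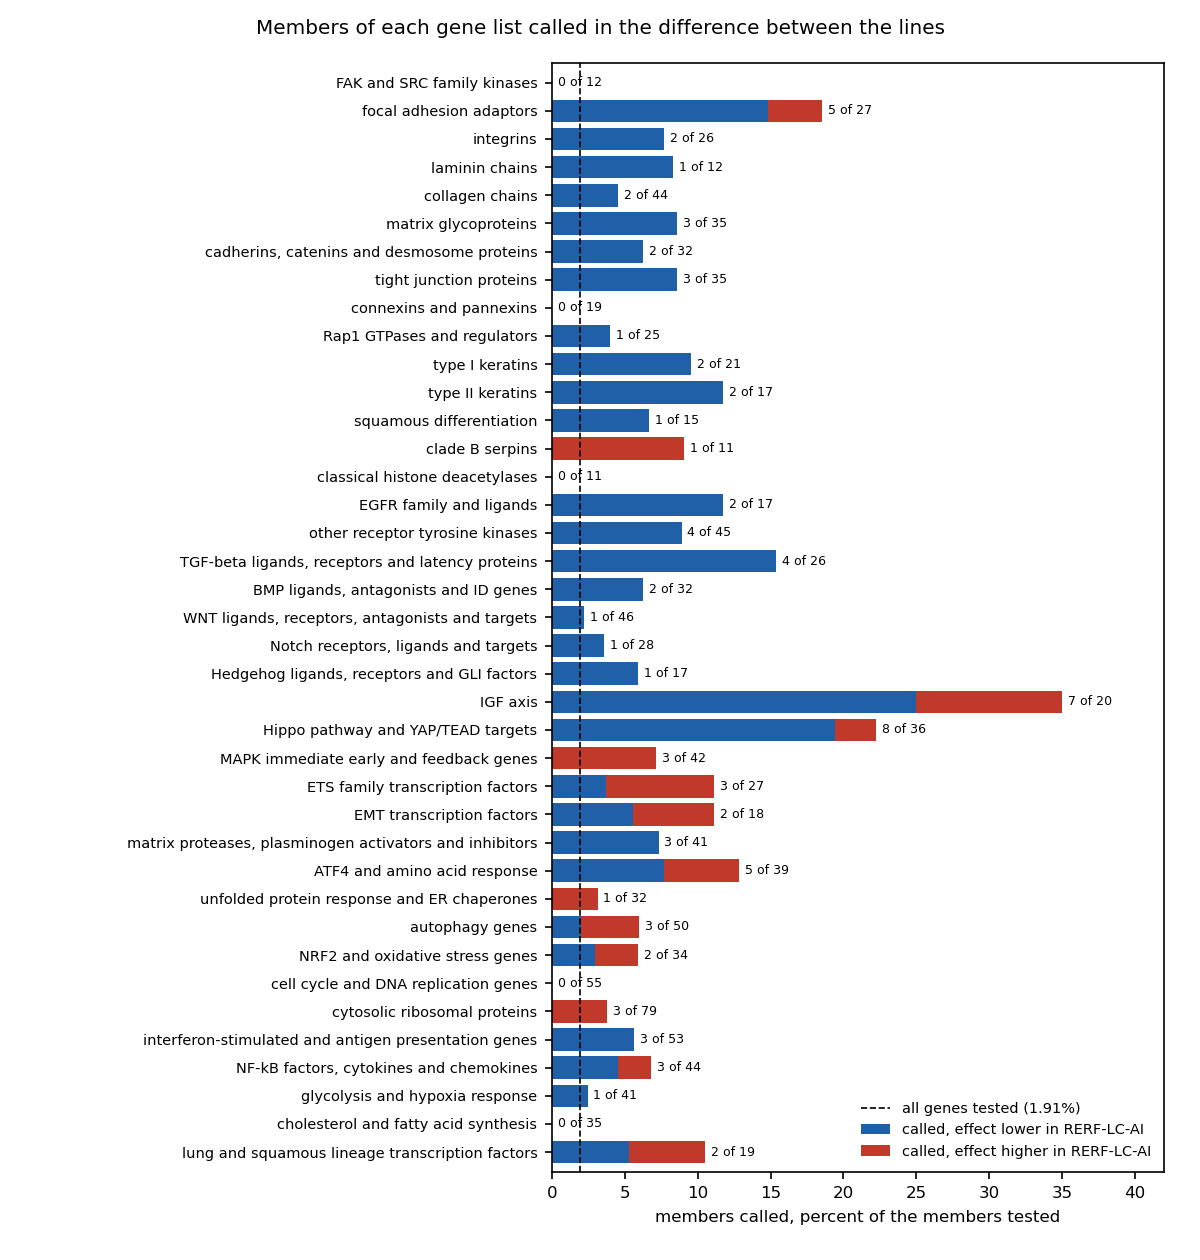
Percent of the tested members of each of 39 gene lists called with a lower (blue) or higher (red) effect in RERF-LC-AI, with the number called of the number tested at the end of each bar. The dashed line marks the 1.91% called among all genes tested. The IGF axis (7 of 20) and the Hippo list (8 of 36) have the longest bars, and blue prevails.

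Called genes were uneven along the genome, and the unevenness lay mostly in RERF-LC-AI. Chromosome 9 held 67 calls among 1140 genes tested (5.88%), 62 of them lower, and chromosome 7 had 33 lower and 1 higher. On chromosome 3, against the general direction, 32 were higher and 12 lower. Position was therefore followed in bins of 10 Mb, with RefSeq starts (GRCh38.p14, of which the files' GRCh38.p13 shares the chromosome coordinates) and genes of at least 4 CPM in a group of the line. Over 286 bins with at least 10 such genes in both lines, the SD of the median effect was 0.0894 in RERF-LC-AI and 0.0381 in LK-2. The median passed 0.1 in size in 60 bins in RERF-LC-AI and in 6 in LK-2. Runs of at least 2 neighbouring bins beyond 0.1 made 10 regions. They were drawn after the calls had been seen and are described without a test.

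On the long arm of chromosome 9, from 70 to 140 Mb, 342 of 367 genes (93.2%) had an effect below 0 in RERF-LC-AI, with a median of -0.25. The median of the same stretch was 0.015 in LK-2. In each library the level of these genes was set against the mean of the ctrl libraries of its line. The median was -0.021, 0.009 and 0.007 in LC-AI-ctrl but -0.239, -0.241 and -0.278 in LC-AI-maspin. It was 0.021, 0.025 and -0.013 in LK2-maspin. The 3 LC-AI-maspin libraries were thus alike. Ctrl libraries lie near 0 by construction, as each line was set against its own ctrl mean. The stretch was itself drawn from its effect in RERF-LC-AI, so that these libraries lie off 0 is no separate result. Of 767 genes tested there 62 were called (8.08%), 60 of them lower, and COL5A1, ENG, PSAT1 and PTCH1 are among those. ALDH1A1, with few reads in RERF-LC-AI, was higher.

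Chromosome 3 showed the reverse shift. From 0 to 20 Mb the median effect in RERF-LC-AI was 0.305, and 87 of 90 genes (96.7%) were above 0, with LC-AI-maspin libraries at 0.279, 0.348 and 0.29 and LK2-maspin libraries at 0.004, 0.002 and 0.008. Of 183 genes tested 18 were called (9.84%), 17 of them higher. The von Hippel-Lindau gene VHL, named after its values were seen, differed by 0.62 there. From 90 to 150 Mb the median was 0.201, and from 180 to 200 Mb, around ETV5, it was 0.129. Chromosome 11 changed sign along its length, with a median of 0.198 from 0 to 50 Mb and -0.157 from 50 to 140 Mb in RERF-LC-AI, against -0.02 and 0.025 in LK-2. ETS1, AMOTL1, MAML2, SIPA1, PRSS23 and KCNJ5 lie in the second stretch.

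The other regions of RERF-LC-AI were chromosome 6 from 0 to 60 Mb (median 0.119), chromosome 7 from 0 to 40 Mb (-0.164) and chromosome 8 from 40 to 150 Mb (-0.15). MYBL1, MATN2, LY6E, HAS2 and MMP16 lie in the stretch of chromosome 8, and TWIST1 in that of chromosome 7. SOX4, TAP1, PSMB8, DSP and NEDD9 lie in that of chromosome 6. The differences of TAP1, PSMB8, DSP, HAS2 and, on chromosome 11, KCNJ5 ran against the direction of their stretch. LY6E, TWIST1, ETS1 and TAP1 rose in LK-2 and KCNJ5 fell there, where these stretches had medians near 0. The one region of LK-2 was chromosome 12 from 0 to 40 Mb, where the LK2-maspin libraries were at -0.144, -0.133 and -0.15 and the median in RERF-LC-AI was -0.012. What lies behind these shifts was not tested, and the tables hold RNA counts alone. Whether the ctrl or the maspin pool had moved cannot be told apart. In all 10 regions 213 of 5323 genes were called (4%), and 191 of the 213 lay in the direction of their region. Outside them 318 of 21566 genes were called (1.47%).

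**Figure D4:**
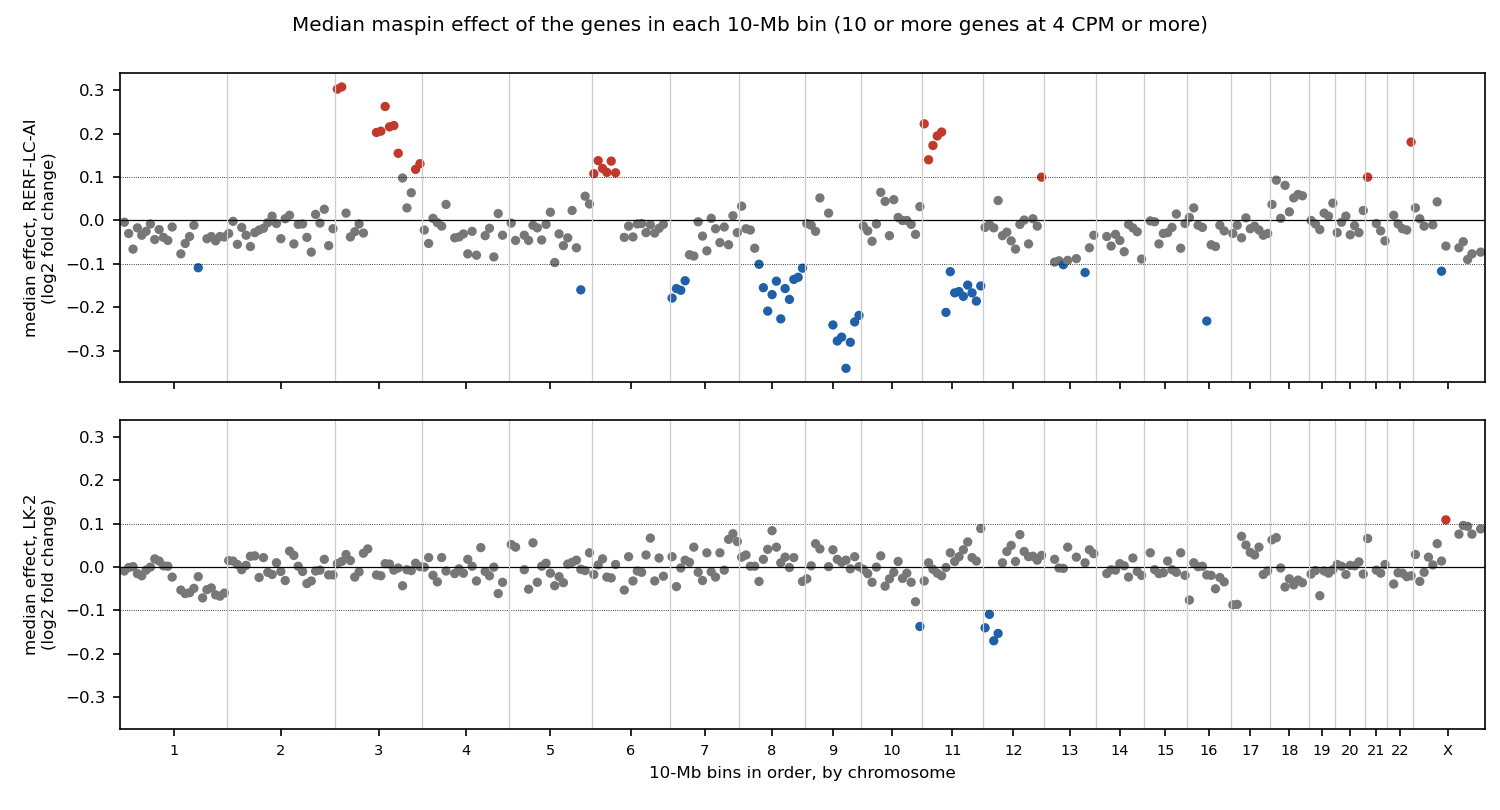
Median log2 fold change of maspin over ctrl (y axis) for the genes of each 10-Mb bin, bins in order along chromosomes 1 to 22 and X, RERF-LC-AI above and LK-2 below, with dotted lines at a size of 0.1. Red and blue points lie beyond the dotted lines. In RERF-LC-AI the points of chromosomes 3, 6, 7, 8, 9 and 11 leave the zero line in runs, and in LK-2 those of chromosome 12 do.

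**Figure D5:**
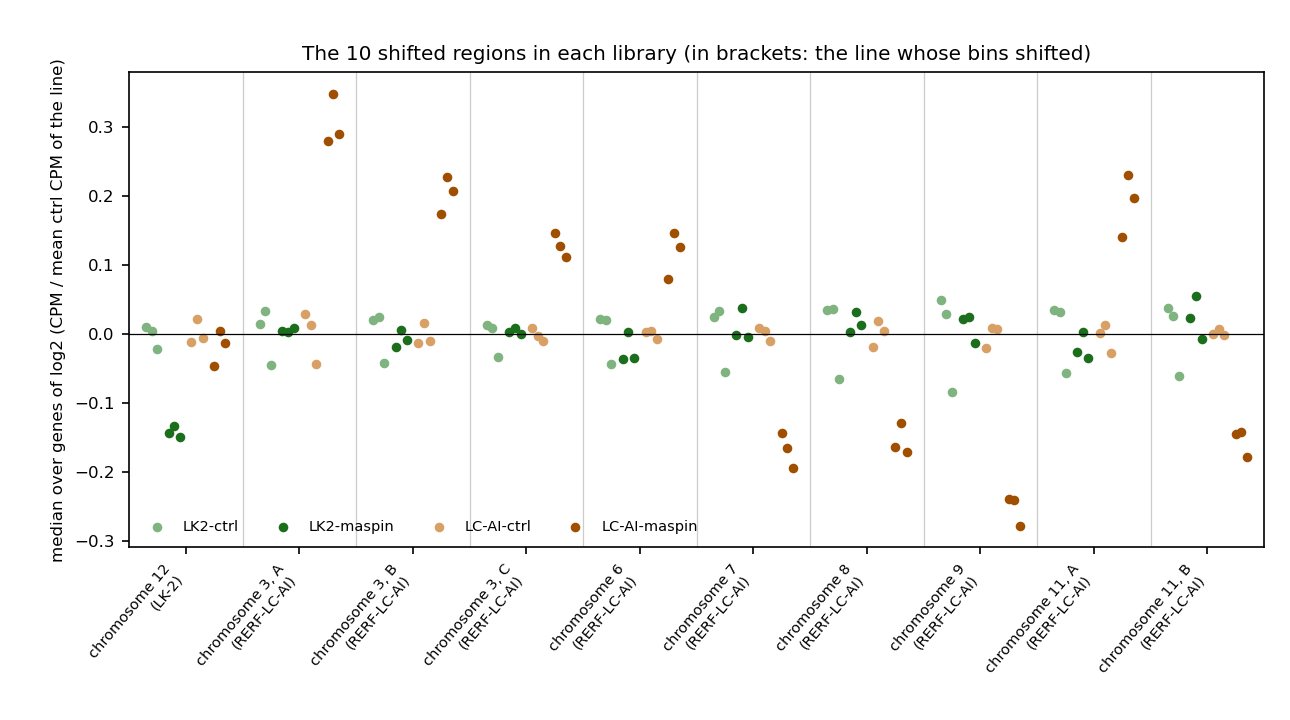
Median over the genes of each of the 10 regions of log2 CPM over the mean ctrl CPM of the line (y axis), 1 point per library, the regions of one chromosome lettered in order. The LC-AI-maspin points leave 0 in the 9 regions of RERF-LC-AI and the LK2-maspin points in that of LK-2 (chromosome 12), by which the regions were drawn. The maspin points of the other line stay near 0, and ctrl points lie near 0 by construction.

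In some families all called members lay in these stretches. All 3 ribosomal protein genes that were called out of 79, with a list median of 0.008, lie in regions that rose in RERF-LC-AI, RPL32 on chromosome 3 and RPL27A and RPLP2 on chromosome 11. RPL32 rose there from 1470, 1500 and 1390 CPM to 1720, 1970 and 1770 CPM. Taken relative to the median of their own bin, the differences of these 3 shrank from between 0.34 and 0.40 to between 0.09 and 0.113, and none was called. All 3 also lost their calls with RLE factors. Relative to their bins, none remained either of the 3 called among 50 autophagy genes (list median -0.043), ATG7 on chromosome 3, ATG13 on chromosome 11 and TAX1BP1 on chromosome 7, whose differences of 0.34, 0.33 and -0.30 became 0.04, 0.10 and -0.16. EDEM1 (0.07) and PSAT1 (-0.20) lost their calls with the same setting. With this bin setting, chosen after the positions were seen, 328 genes were called, 83 higher and 245 lower, of which 296 are among the 538. Of the 101 named genes called at first, 20 lost their call, EGFR among them (difference -0.47, adjusted p = 0.177, edgeR). MYBL1, MATN2, LY6E, ETS1, TWIST1, ETV5 and SOX4 kept theirs.

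Where a gene was nearly silent in one line, the difference rests on few reads. Of the called genes 37 were under 1 CPM in both groups of a line, 22 of them in RERF-LC-AI, 19 in LK-2, some in both. CST6, the protease inhibitor cystatin M, had 0 reads in all LK2-ctrl libraries and 2, 4 and 2 in LK2-maspin. It fell in RERF-LC-AI from 25.4, 30 and 33.1 CPM to 12.8, 14.1 and 12.8 CPM. CYP27A1, a sterol hydroxylase, likewise had 0 reads in LK2-ctrl and 6, 1 and 2 in LK2-maspin. MAGEA2, a cancer-testis gene with near-identical copies, had 4, 6 and 2 reads in LC-AI-ctrl and 0 in LC-AI-maspin, and its value is uncertain. ALDH1A1, retinaldehyde dehydrogenase, was at 7260, 7550 and 7630 CPM in LK2-ctrl but had 6, 2 and 7 reads in LC-AI-ctrl and 10, 16 and 30 in LC-AI-maspin. A fitted difference against a group at 0 depends on the prior count and is no bound. DUOXA1, a maturation factor of dual oxidase, had 9, 11 and 8 reads in LK2-ctrl, 2, 0 and 0 in LK2-maspin, 18, 11 and 16 in LC-AI-ctrl and 28, 42 and 27 in LC-AI-maspin. Its difference of 4.42 became 7.10 without LK2-maspin replicate 1. Of the named genes under 1 CPM in both groups of a line, DUOXA1 and PDGFRB were called without each library in turn.

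A few genes fell in both lines. DPEP3, S100A7A, SPRR4 and LOC105370680 fell by 1.93 to 2.5 on the log2 scale in each line, and their differences were 0.25 (SE 0.21), 0.00 (SE 0.10), 0.32 (SE 0.27) and 0.17 (SE 0.19). Their counts moved together over the libraries. DPEP3 and SPRR4 had 296 and 196 reads in LK2-ctrl replicate 1 and 92 and 56 in LK2-maspin replicate 1. They had 2620 and 1826 in LC-AI-ctrl replicate 1 and 672 and 496 in LC-AI-maspin replicate 1. Whether these are 4 separate responses was not tested. Of the genes that the study concerns, PTK2B, the focal adhesion kinase PYK2, rose in RERF-LC-AI from 6.01, 4.29 and 5.67 CPM to 10.3, 9.27 and 10.6 CPM. Its LK-2 groups overlapped at 2.36 to 3.72 CPM, and the difference was 0.65 (SE 0.23, adjusted p = 0.207, edgeR). With the replicate number as a block, PTK2B was called (difference 0.64, adjusted p = 0.0202, edgeR). SRGN, the proteoglycan serglycin, differed by 0.77 (SE 0.31, adjusted p = 0.262, edgeR) with 0.173 to 0.445 CPM in LK-2. SRC differed by 0.07 (SE 0.11) and HDAC1 by -0.11 (SE 0.08), and neither was called. That these 4 genes missed the threshold in the main fit does not show that their effects were equal.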

How the data were processed

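RNA was purified on poly(A) and sequenced on a NovaSeq 6000. According to the methods and the processing notes, the authors cleaned reads with Trimmomatic 0.39, mapped to GRCh38.p13 by BWA 0.7.17, and used SAMtools (version 1.12 for LK-2, 1.10 for RERF-LC-AI). Each line has a deposited table of counts, the mapped reads per gene. No source names the counting tool or its use of strand. Signal columns deposited beside them, which are counts the authors rescaled by total or with TMM in edgeR 3.16.5, were not used.

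Tables were joined by gene symbol, without the 646 lines per table that lack one (at most 0.416% of a library). All 12 libraries entered 1 fit of 4 group means in edgeR 4.0.16 (R 4.3.3, statmod 1.5.0), with TMM factors from 0.904 to 1.12, the filterByExpr defaults (at least 10 counts, 15 in total) and robust quasi-likelihood tests. SE is the log2 value divided by the root of F. Within groups, chi-square per degree of freedom was 4.7 to 26.5, above the noise of reads counted singly. Of the counts from 1 to 9 only 23.7% to 25.95% in a library were odd. A count of 1 may therefore not be 1 independent observation, which limits the reading of counting noise and of low counts. Alternatives were other factors and filters, likelihood ratio tests, DESeq2 1.42.0 and limma 3.58.1 (voom with weights per line). Further ones were a replicate block, a 1.5-fold threshold, a stricter threshold of 0.01 and omission of single libraries. The tests were tried on simulated data. Python 3.11.15, pandas 2.3.3 and matplotlib 3.10.9 made tables and figures.

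The comparison, lists and named genes were chosen with earlier results of these data known. Named were genes the study concerns and the 12 largest differences in each direction called without each library. Up to 3 called members per list by adjusted p and the 8 smallest adjusted p of opposite signs were added. So were the 5 largest differences in each direction of genes silent in a line. The last were 4 genes whose counts were earlier found in a fixed ratio. Some genes that meet these criteria are not reported here. Other list members with a value, the regions and both settings built on them were chosen after seeing the data. Positions and promoters are from RefSeq (GRCh38.p14), matched by Entrez ID.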

Additional observations from a re-analysis of the deposited data

Results flagged for a closer look

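The effect of maspin differed between the lines by edgeR's test of the difference itself for 538 genes, 101 of them named in the text. All are differences on the log2 scale, RERF-LC-AI minus LK-2, from 3 libraries in a group.

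Higher in RERF-LC-AI were SERPINB5 6.52, DUOXA1 4.42, RHEX 3.63, CLVS2 3.26, POF1B 2.14, KCNJ5 2.03, ALDH1A1 1.89, ODC1-DT 1.85, LOC105378174 1.70, TMEM47 1.58, C7 1.55, AKR1C3 1.17, GATA6 1.12, HAS2 1.08, KCTD15 0.89, LPL 0.88, PALD1 0.82, SOX4 0.79, FAM171B 0.78, NEDD9 0.65, ETV4 0.64, TCF4 0.62, ETV5 0.49, NFKB2 0.49, STC2 0.49, RPL32 0.40, EDEM1 0.38, RPL27A 0.36, ATG7 0.34, RPLP2 0.34, ATG13 0.33 and SPRED1 0.32.

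The most negative differences were CST6 -5.69, MAGEA2 -5.24, CYP27A1 -4.99, UCA1 -3.60, CRIM1-DT -3.05, THBS2 -2.85, KRT31 -2.65, IGFBP3 -2.58, IGFN1 -2.07, LY6E -2.06, ZNF784 -2.05, PDGFRB -2.04, PRSS23 -2.04, THBS1 -1.98, ABCB1 -1.94, MGC32805 -1.80, IL7R -1.75, COL26A1 -1.71, MPP1 -1.70, IGFBP7 -1.69, ETS1 -1.61, KIT -1.59, PSMB8 -1.55 and STMN3 -1.53. Next in size were SOX9 -1.42, NOTUM -1.31, COL5A1 -1.24, MATN2 -1.22, ITGB4 -1.21, CLDN7 -1.19, MYBL1 -1.11, TAP1 -1.06, IRS1 -1.03, ENG -1.0, FGFR3 -0.99, PTCH1 -0.98, ADAM19 -0.96 and NRG1 -0.95. Smaller negative differences were MAML2 -0.90, TWIST1 -0.90, KRT80 -0.89, TGFB2 -0.87, ITGA1 -0.86, AMOTL1 -0.84, BMP4 -0.80, GLCE -0.80, SFN -0.80, SIPA1 -0.77, KRT8 -0.74, SMAD6 -0.74, BAMBI -0.71, MMP16 -0.69, NLRC5 -0.67, GPX3 -0.66, CGN -0.64 and KRT18 -0.64. The negative differences nearest to 0 among the named genes were EGFR -0.58, LAMB1 -0.58, CRIM1 -0.57, IL6R -0.54, PKP2 -0.54, EPAS1 -0.52, SLC1A5 -0.50, MMP14 -0.49, TNS3 -0.49, PSAT1 -0.46, DSP -0.44, ACTN4 -0.41 and TAX1BP1 -0.30. The values of CST6, CYP27A1 and MAGEA2 rest on a group with 0 reads and are no bounds, and those of AKR1C3, ALDH1A1, C7, CRIM1-DT, DUOXA1, KRT31, ODC1-DT, PDGFRB, PSMB8, RHEX and THBS2 come from genes under 1 CPM in both groups of a line. Without 1 library DUOXA1 reached 7.10 (LK2-maspin replicate 1), RHEX 6.37 (LC-AI-ctrl replicate 1) and CRIM1-DT -7.50 (LK2-ctrl replicate 2). For RHEX and for CRIM1-DT the call was lost in 6 of the omissions of a library or replicate, for ODC1-DT in 11 and for C7 in 3. Among the small differences, ATG7 lost its call in 11 omissions, ATG13 and RPLP2 in 10 each and TAX1BP1 in 9. RPL27A and RPL32 lost theirs in 6 each.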

How the results depend on the processing

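From 538 calls (126 higher, 412 lower), the count became 816 (244, 572) with the likelihood ratio test, 1041 (170, 871) with DESeq2, 218 (32, 186) at an adjusted p under 0.01 and 27 (5, 22) when tested against 1.5-fold. Relative to the median of 10-Mb bins it was 328 (83, 245), and without the genes of the 10 regions 272 (55, 217). Both settings were chosen after seeing the data. Higher calls were 71 with RLE factors, 212 with upper-quartile factors, 240 with library size only and 242 among genes at 1 CPM or more in both lines. Leaving out one library gave from 293 to 806 calls, from 42 to 180 higher and from 227 to 626 lower. The cause of these changes was not tested.

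The replicate number as a block gave 2418 calls (889 higher, 1529 lower), 537 of them among the 538. Deviations of same-numbered libraries correlated at 0.709, 0.0987 and 0.71 in LK-2 and at 0.353, 0.34 and 0.177 in RERF-LC-AI. With unlike numbers the values ran from -0.697 to 0.15 in LK-2 and from -0.306 to -0.00979 in RERF-LC-AI. For LK2-ctrl replicate 2 the correlation was larger, at 0.15, with replicate 1 of LK2-maspin. Every other ctrl library correlated most with the maspin library of its own number. The main fit did not take the numbers as pairs, so it may ignore a pairing. Among named genes the block ended the call of THBS2 and added that of PTK2B (difference 0.64, adjusted p = 0.0202, edgeR), and it changed no other call.

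The sign changed for 2 genes that were not called. S100A7A (main value 0.001) was at -0.043 with RLE factors, -0.036 with no filter, -0.042 with DESeq2, -0.008 with voom, -0.007 relative to its bin and from -0.178 to 0.147 when a library was left out. SRC ran from -0.009 to 0.13 when a library was left out. Of the 101 named genes called, 66 were called without each library in turn and 35 were not. Limma voom ended 25 of these calls, those of AKR1C3, ALDH1A1, ATG7, BAMBI, CRIM1-DT, CST6, CYP27A1, EGFR, ENG, GATA6, IGFN1, IL6R, ITGB4, KRT31, KRT80, MAGEA2, NEDD9, NLRC5, NOTUM, ODC1-DT, PSMB8, PTCH1, RHEX, TAP1 and THBS2, and DESeq2 ended that of ATG7. RLE factors ended those of ATG7, ATG13, EDEM1, RPL27A, RPL32, RPLP2 and SPRED1. Upper-quartile factors ended those of MMP14, NLRC5, PTCH1 and THBS2, and library size only those and SIPA1. NLRC5 and PTCH1 were also lost with TMM within each line, and ATG7, ATG13, PTCH1, RPLP2, SPRED1 and THBS2 with no filter. Under a mean of 1 CPM 8 of 10337 genes were called, and a missed call at that depth does not show equal effects.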
